A study of Mus musculus with 24 samples.

Results

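Genes of protein folding in the endoplasmic reticulum (ER) were followed in mouse alveolar macrophages, which clear particles and surfactant from the air spaces, in 24 bulk RNA-seq libraries of sorted cells (strain C57BL/6J). The set held 40 genes, chosen by name for their role in ER folding, translocation, glycoprotein processing and ER-associated degradation, of 43430 genes in the deposited table. The choice was made with earlier results of these data known, which limits each contrast below between the set and all genes. All 40 passed the filter on low counts, among 13629 genes that did. They comprised 10 lumenal chaperones and their partners, 7 disulfide isomerases or relatives, 5 genes of glycoprotein folding, 3 genes of the stress sensors (Xbp1, Ern1 and Atf6), 9 genes of ER-associated degradation and 6 genes of translocation into the ER. The 6 groups of 4 libraries were Siglec F-high macrophages of young (8 to 12 weeks) and old (over 18 months) naive mice, Siglec F-high macrophages of young and old mice given asbestos, and Siglec F-low macrophages of the same 2 ages after asbestos, which the series text places at day 28. That text speaks of tissue-resident and monocyte-derived cells, whereas the sample labels name the sorts only by Siglec F, a lectin of resident alveolar macrophages, and those names are kept. No allele, transgene or drug is named for any group, and there was no naive Siglec F-low group. Nothing in the labels says that the replicates of a group came from separate animals, so the p-values measure the spread between these libraries.

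Proteins that are secreted, placed in membranes or sent to lysosomes enter the ER through the Sec61 channel, are folded there by Hsp70 and Hsp90 chaperones, lectin chaperones and disulfide isomerases, and are drawn back out for degradation when folding fails. When unfolded proteins build up, the sensors IRE1 (encoded by Ern1), ATF6 and PERK start the unfolded protein response. IRE1 splices the Xbp1 messenger into the form that encodes an active transcription factor, and XBP1 and ATF6 raise chaperone and degradation genes. Counts per gene do not separate spliced from unspliced Xbp1, and messenger levels of Ern1 and Atf6 do not report sensor activity. Macrophages use this machinery for secreted, lysosomal and surface proteins.

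XBP1 and ATF6 act through short promoter elements, and stretches of 7 promoters are shown because the calls below are also counted by these elements. Windows of 250 bases before to 50 bases after the RefSeq start (GRCm38.p6) were found for 34 of the 40 genes. The ER stress response element, searched on both strands as CCAAT followed after 9 bases by CCACG, was found in the windows of 8 of these 34 genes, and in 0.119% of all 32851 windows in the table. Its second form, ATTGG and CCACG with 1 base between them, was found for 2 genes (Dnajb11 and Herpud1) and in 0.0365% of all windows. The letters TGACGTGG, an XBP1 element, were found for 2 genes (Txndc5 and Txndc11) and in 0.676% of all windows. The 8 genes with the first element were Hspa5, Hsp90b1, Dnajc3, Creld2, Pdia6, Calr, Canx and Syvn1. A match is a stretch of letters and not a measured binding site. Capitals mark the fixed letters of the element in the stretches below, which run 5′ to 3′ on the gene's strand and end before the start.
Hspa5, chr2:34772010-34772058, plus strand: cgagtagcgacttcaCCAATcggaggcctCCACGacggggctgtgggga
Hsp90b1, chr10:86705518-86705671, minus strand: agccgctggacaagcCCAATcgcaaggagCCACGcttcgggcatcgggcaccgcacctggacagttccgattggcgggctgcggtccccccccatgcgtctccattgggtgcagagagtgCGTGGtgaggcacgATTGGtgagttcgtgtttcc
Dnajc3, chr14:118937812-118937860, plus strand: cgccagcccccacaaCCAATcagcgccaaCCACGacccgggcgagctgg
Creld2, chr15:88819505-88819553, plus strand: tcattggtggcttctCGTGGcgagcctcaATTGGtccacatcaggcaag
Pdia6, chr12:17266476-17266524, plus strand: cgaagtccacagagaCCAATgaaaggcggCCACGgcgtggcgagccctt
Calr, chr8:84847060-84847108, minus strand: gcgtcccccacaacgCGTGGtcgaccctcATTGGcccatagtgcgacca
Herpud1, chr8:94386362-94386402, plus strand: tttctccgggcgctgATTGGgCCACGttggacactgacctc
In Hspa5, Dnajc3 and Pdia6 the element reads in the gene's direction, in Creld2 and Calr in the opposite one, and Hsp90b1 holds it once in each. The stretch of Herpud1 shows the second form.

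Of the 24 libraries, 22 held 13423080 to 18124526 counts, and their Pearson coefficient with the mean of their group's other libraries, taken over genes and so not over independent replicates, was 0.971 to 0.993. Replicate 3 of the young asbestos Siglec F-high group held 11889517 counts on 12528 genes, with a coefficient of 0.865. Replicate 3 of the old asbestos Siglec F-high group held 3894699 counts, 35.6% of them on Gm42418, a gene model that takes up ribosomal RNA reads, against 0.136 to 0.357% in the 22, with a coefficient of 0.900. Values below are from the other 22 libraries, so these groups have 3 libraries each and the rest 4, and counts of calls with all 24 libraries are given too. A gene was called at a Benjamini-Hochberg adjusted p under 0.05 of the edgeR quasi-likelihood test over all genes of a comparison. Levels are CPM (counts scaled to library size with TMM factors), given for each library or as mean ± SD, and log2 fold changes are given ± standard error (SE). The sort marker went with the labels: Siglecf stood at 480.2, 505 and 461 CPM in young and 484, 502 and 502 CPM in old asbestos Siglec F-high libraries, and at 309, 262, 250.1 and 296 and 234, 156, 169.6 and 176 CPM in the Siglec F-low ones.

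The set was well expressed in these macrophages. Per kilobase of exon, and averaged over the 22 libraries, the highest level was that of Calr (calreticulin, a lectin chaperone) at 457 CPM per kb, followed by Hspa5 (BiP, the ER Hsp70) at 327, P4hb (protein disulfide isomerase) at 279.9, Pdia3 (the isomerase that works with calreticulin and calnexin) at 267 and Hsp90b1 (GRP94, the ER Hsp90) at 243. At the low end of the same scale stood Atf6 (8.66), Txndc11 (7.27), Ern1 (6.73) and Pdia5 (2.65 CPM per kb). Summed over the 40 genes, the level in a library ran from 8728 to 10294 CPM in old naive and 10134 to 11047 CPM in young naive Siglec F-high libraries, which overlapped. After asbestos it was 10550.0 to 11202 CPM in old and 11779 to 12955 CPM in young Siglec F-high libraries, which did not overlap. The Siglec F-low sums of 12182 to 13929.9 CPM in old and 13453 to 15453 CPM in young overlapped each other and lay above every Siglec F-high library of their own age. With TMM factors of all 24 libraries, the 2 poor libraries stood outside their groups on opposite sides, at 15830.2 CPM for the young and 7449 CPM for the old one. In bulk libraries, more cells that express these genes and more RNA per cell cannot be told apart.

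**Figure D1:**
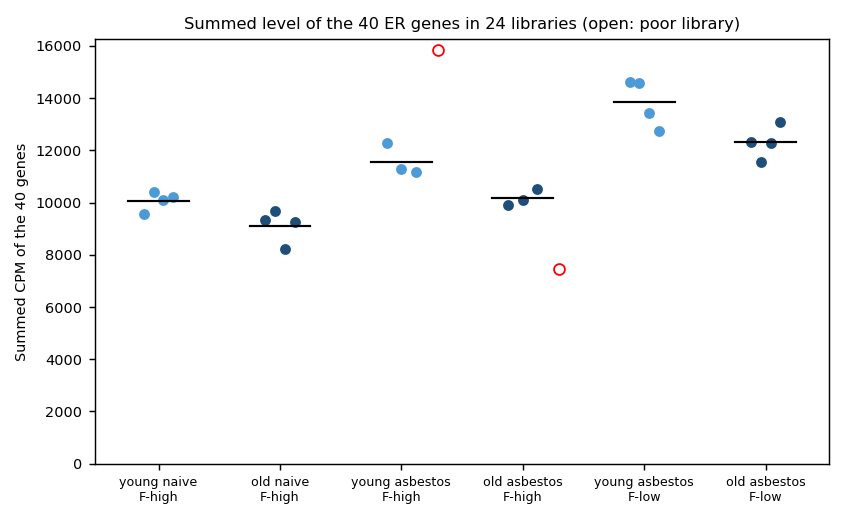
Summed CPM of the 40 ER genes (y axis, from 0) in each of 24 libraries by group (x axis), with TMM factors of all 24. Filled points are libraries used in the fit and lines their means, and red open points are the poor libraries at 15830.2 and 7449 CPM. The Siglec F-low groups lie above the Siglec F-high groups of the same age.

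Age was compared first in naive Siglec F-high cells. In old cells 7 of the 40 genes fell and 0 rose, against 2.91% of all genes lower and 5.11% higher (8.03% called in all). Chaperones made up 5 of the 7, Hyou1 (-0.35 ± 0.08), Manf (-0.39 ± 0.09), Creld2 (-0.41 ± 0.10), Hspa5 (-0.40 ± 0.11) and Hsp90b1 (-0.28 ± 0.08), and Herpud1 (degradation) and Pdia6 (an isomerase) were the others. The median log2 fold change of the 40 genes was -0.08, and that of all genes 0.00. Hspa5 (ENSMUSG00000026864, chromosome 2, 34771970 to 34777547, plus strand) stood at 1041, 1319, 1179 and 1179 CPM in young and 937, 1029.7, 723 and 895 CPM in old naive libraries. Every old library was below every young one, and the log2 fold change was -0.40 ± 0.11, adjusted p 0.0198. BiP binds unfolded chains and holds the sensors inactive. Hyou1 (ORP150, a large ER Hsp70 that serves as exchange factor of BiP; ENSMUSG00000032115, chromosome 9, 44379490 to 44392369, plus strand) was at 233, 259, 285 and 279.7 CPM in young and 209, 232, 178 and 208 CPM in old libraries. The groups did not overlap, and Hyou1 fell by 0.35 on the log2 scale (-0.35 ± 0.08, adjusted p 0.00703). Herpud1 (a membrane protein that assembles the degradation complex; ENSMUSG00000031770, chromosome 8, 94386438 to 94395377, plus strand) held 129, 157, 164 and 156 CPM in young and 118, 117, 123 and 129 CPM in old libraries (-0.32 ± 0.08, adjusted p 0.0141). Pdia6 (ENSMUSG00000020571, chromosome 12, 17266545 to 17284770, plus strand), an isomerase that also acts on IRE1, held 346, 394, 384 and 379 CPM in young and 310.0, 336, 248 and 322 CPM in old libraries (-0.31 ± 0.09, adjusted p 0.0275). Both were lower in each old library than in any young one, which 4.81% of all genes were. No gene of glycoprotein folding, translocation or the sensors was called, and their log2 fold changes ran from -0.25 to 0.13. With all 24 libraries edgeR called 0 of the 40 (Hspa5 adjusted p 0.326, Hyou1 0.993), with fold changes nearly the same and with 1.68% of all genes higher and 0.349% lower, 2.03% in all. By that fit 3 of the 40 had an unadjusted p under 0.05 there, as did 8.64% of all genes, and limma voom with sample weights on the same 24 called 11. Over all 13467 genes limma voom called 1870, against 273 by edgeR with 24 libraries. The count of 7 was 4 when young naive replicate 2 was left out, 4 when young naive replicate 3 was left out and 3 when old naive replicate 3 was left out, and the calls of Hyou1 and Manf held without any one of the 8 libraries. Over all genes the fits with counts of 4, 4 and 3 called 1160, 761 and 907, against 1094 with 22 libraries.

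After asbestos, in the Siglec F-high sort, 8 genes fell in old cells and 1 rose (2.47% of all genes lower, 4.84% higher). Lower were the chaperones and partners Hyou1 (-0.46 ± 0.09), Sdf2l1 (-0.50 ± 0.12), Creld2 (-0.42 ± 0.12), Dnajc3 (-0.29 ± 0.08) and Manf (-0.37 ± 0.11), the isomerases Pdia4 (-0.33 ± 0.08) and Pdia6 (-0.39 ± 0.10), and Herpud1 (-0.42 ± 0.09). The gene that rose was Atf6. The median of the 40 genes was -0.14, beside 0.01 over all genes. Hyou1 was at 369, 342 and 347 CPM in young and 261, 234 and 277 CPM in old libraries, without overlap (-0.46 ± 0.09, adjusted p 0.00336). Herpud1 was at 137, 149 and 138 CPM and 97.9, 103 and 116 CPM in the same order of groups (-0.42 ± 0.09, adjusted p 0.00679). Pdia4 (ENSMUSG00000025823, chromosome 6, 47796141 to 47813430, minus strand), an isomerase of the ER lumen also called ERp72, held 327, 310.2 and 309.9 CPM in young and 249, 247 and 255 CPM in old libraries (-0.33 ± 0.08, adjusted p 0.0118). Atf6 (ENSMUSG00000026663, chromosome 1, 170704674 to 170867771, minus strand), the membrane-bound precursor of a transcription factor, held 71.0, 72.2 and 71.1 CPM in young and 90.8, 82.9 and 92.1 CPM in old libraries. All old libraries were above all young ones, opposite to the chaperones (0.31 ± 0.09, adjusted p 0.0334). Between these groups of 3 libraries each, 15.5% of all genes lay above and 12.3% below in old cells without overlap. Hspa5 held 1589, 1398 and 1316 CPM in young and 1045, 1110.3 and 1249.9 CPM in old libraries, which did not overlap, but it was not called (-0.34 ± 0.12, adjusted p 0.0985). With 24 libraries it was (adjusted p 0.0375). The poor young library held 1675 CPM and the poor old one 662 CPM. With 24 libraries 8 genes were lower and 1 higher, of which 5 were called in both fits (with 24, 2.89% of all genes higher and 1.87% lower, 4.76% in all, and with 22, 7.32% in all). The count of 9 was 3 when young asbestos Siglec F-high replicate 1 was left out, 4 when young asbestos Siglec F-high replicate 2 was left out and 2 when old asbestos Siglec F-high replicate 1 was left out, and Hyou1 and Pdia4 were called in each of the 6 fits that left out 1 library. Over all genes the fits with counts of 3, 4 and 2 called 811, 496 and 551, against 997 with 22 libraries.

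In the Siglec F-low sort 10 genes fell in old cells and 1, again Atf6, rose (3.41% of all genes lower, 3.80% higher, 7.21% called). The fallen genes were the chaperones and partners Creld2 (-0.43 ± 0.10), Manf (-0.37 ± 0.09), Sdf2l1 (-0.40 ± 0.11), Dnajb11 (-0.25 ± 0.07) and Dnajb9 (-0.35 ± 0.10), the isomerases Pdia4 (-0.27 ± 0.07) and Pdia6 (-0.33 ± 0.09), the degradation genes Herpud1 (-0.30 ± 0.08) and Edem1 (-0.20 ± 0.06), and Xbp1. The median over the 40 was -0.12 (all genes 0.00). Creld2 (a secreted ER stress protein with isomerase activity; ENSMUSG00000023272, chromosome 15, 88819646 to 88826683, plus strand) was at 115, 121, 104 and 87.0 CPM in young and 80.8, 71.7, 82.7 and 82.7 CPM in old libraries. The old libraries all lay lower (-0.43 ± 0.10, adjusted p 0.00955). Pdia4 held 406, 405, 386 and 359 CPM in young and 331, 293, 317 and 350.3 CPM in old libraries (-0.27 ± 0.07, adjusted p 0.0179), and Herpud1 160.2, 159, 145 and 144 and 121, 108, 139 and 127 CPM (-0.30 ± 0.08, adjusted p 0.0249). Neither gene overlapped between the ages, as was so in this direction for 6.23% of all genes. Atf6 went the other way, from 86.1, 74.8, 81.9 and 77.9 CPM in young to 96.3, 99.9, 87.8 and 113 CPM in old libraries (0.31 ± 0.08, adjusted p 0.0142). Hspa5 was at 2055, 2180.2, 1923 and 1745 CPM in young and 1577, 1379, 1682 and 1828 CPM in old libraries, which overlapped (-0.29 ± 0.10, adjusted p 0.101). With 24 libraries 0 genes were called by edgeR (0.869% of all genes higher and 0.423% lower, 1.29% in all), and limma voom with sample weights called 7. Over all 13467 genes limma voom called 1285, against 174 by edgeR. In edgeR 4 of the 40 had an unadjusted p under 0.05 there, as did 8.15% of all genes. The count of 11 was 3 when young asbestos Siglec F-low replicate 1 was left out, 1 when young asbestos Siglec F-low replicate 2 was left out, 6 when old asbestos Siglec F-low replicate 1 was left out, 3 when old asbestos Siglec F-low replicate 2 was left out and 7 when old asbestos Siglec F-low replicate 3 was left out, and Creld2 alone was called without any one of the 8 libraries. Over all genes the fits with counts of 3, 1, 6, 3 and 7 called 741, 661, 742, 711 and 871, against 983 with 22 libraries.

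The 3 age comparisons share no library, but they were read from 1 fit of all groups. The labels do not say whether the Siglec F-high and Siglec F-low libraries of asbestos lungs came from the same mice. Replicate numbers paired the old sorts by the rule given with the processing (0.150 to 0.205). The 2 asbestos comparisons may therefore not be separate evidence. Creld2, Herpud1, Manf and Pdia6 were called lower in old cells in all 3, which is 10% of the 40 genes beside 0.77% (105) of all genes tested. In at least 2 of the 3 it was 7 genes, with Hyou1, Pdia4 and Sdf2l1 added (17.5% of the 40, 1.81% of all). The count of 4 changed with single libraries: it was 0 without old asbestos Siglec F-high replicate 1, 1 without young asbestos Siglec F-high replicate 1 or 2, young asbestos Siglec F-low replicate 1 or 2 or old asbestos Siglec F-high replicate 4, 2 without young naive replicate 3, old naive replicate 3, old asbestos Siglec F-high replicate 2 or old asbestos Siglec F-low replicate 2. With all 24 libraries it was 0, since 2 of the 3 comparisons then had no call. Manf (a secreted factor that binds BiP; ENSMUSG00000032575, chromosome 9, 106838312 to 106891979, minus strand) held 103, 131, 110.3 and 121 CPM in young and 86.9, 97.0, 77.5 and 93.0 CPM in old naive libraries, 170.5, 150.2 and 141 and 113, 122 and 122 CPM in the asbestos Siglec F-high ones, and 230.3, 218, 182 and 174 and 160.3, 148, 152 and 159.6 CPM in the Siglec F-low ones. In each of the 3 pairs of groups the old libraries lay below the young. Taking each pair alone, 4.81%, 12.3% and 6.23% of all genes did so. Its log2 fold changes were -0.39 ± 0.09, -0.37 ± 0.11 and -0.37 ± 0.09. Markers of dividing cells were lower in old cells in the same comparisons, 7, 5 and 8 of 8 called (2, 5 and 3 with 24 libraries), with summed levels of 304 to 357 CPM in young and 208 to 228 CPM in old naive, 381 to 467 and 253 to 275 CPM in asbestos Siglec F-high, and 403 to 469.9 and 212 to 296 CPM in Siglec F-low libraries. Their part in the age differences was not tested, nor was that of monocyte-derived macrophage markers, of which 3, 3 and 7 of 11 were called higher in old cells (2, 2 and 0 with 24), and in asbestos Siglec F-high cells 1 (Apoe) was called lower. Of B and plasma cell markers 1, 4 and 4 of 10 tested were called higher in old cells (1, 2 and 2 with 24) and none lower. In the naive comparison 5 of the 10 had log2 fold changes above 0 and 5 below. Their sum was 161 to 352 and 301 to 475 CPM in young and old naive, 75.9 to 83.9 and 105 to 416 CPM in asbestos Siglec F-high, and 71.3 to 112 and 147 to 322 CPM in Siglec F-low libraries. Of 10 resident macrophage markers 1, 1 and 1 were called higher in old cells and 0, 0 and 2 lower (0, 0 and 0 higher and 0, 0 and 1 lower with 24). The part of these markers was not tested either.

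**Figure D2:**
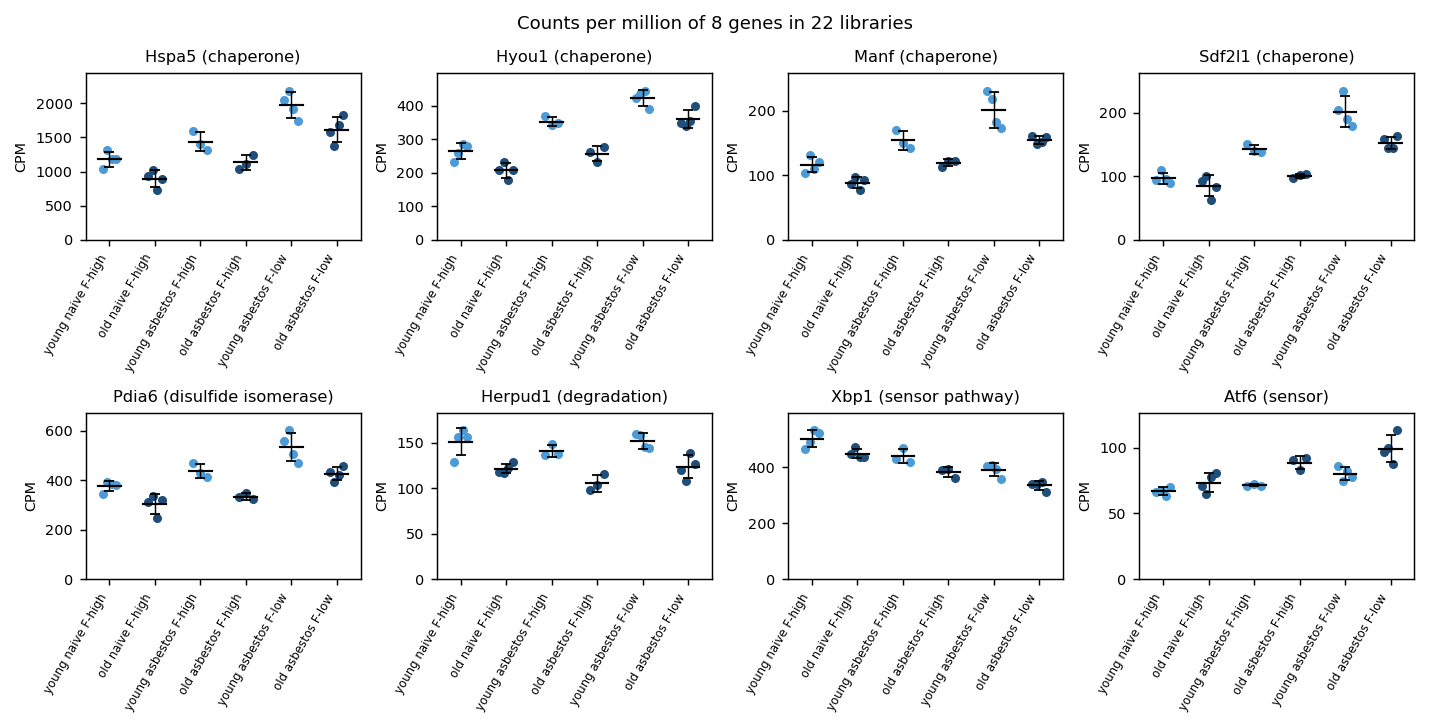
CPM (y axis, from 0) of 8 ER genes in 22 libraries by group (x axis), with light points for young and dark points for old libraries, and the mean ± SD. Manf, Pdia6 and Herpud1 are lower in old than in young cells of each pair of groups, Hspa5 has its highest means in the Siglec F-low sort, and Xbp1 has its highest mean, 503 CPM, in young naive cells.

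Asbestos was then compared with no exposure within the Siglec F-high sort. In young mice 15 of the 40 genes rose and 0 fell, against 3.48% of all genes higher and 1.58% lower (5.06% called). The risen genes came from 4 roles: the chaperones and partners Dnajc3 (0.46 ± 0.08), Sdf2l1 (0.56 ± 0.11), Hyou1 (0.42 ± 0.09), Manf (0.40 ± 0.10), Dnajb9 (0.42 ± 0.10) and Dnajb11 (0.26 ± 0.07); the isomerases Txndc11 (0.44 ± 0.08), Pdia4 (0.35 ± 0.07), Txndc5 (0.27 ± 0.07) and P4hb (0.28 ± 0.08); the degradation genes Edem2 (0.36 ± 0.06) and Sel1l (0.32 ± 0.08); and the translocation genes Sec61a1 (0.27 ± 0.06), Ssr2 (0.49 ± 0.11) and Ssr1 (0.23 ± 0.06). The median of the 40 was 0.22, and 38 of 40 values were above 0, where 49.8% of all genes were. Dnajc3 (P58IPK, a BiP partner that also restrains PERK; ENSMUSG00000022136, chromosome 14, 118937976 to 118981697, plus strand) was at 168, 172, 195 and 199.8 CPM in young naive and 269.9, 239.7 and 248 CPM in young asbestos libraries, without overlap (0.46 ± 0.08, adjusted p 0.000827, and 0.00890 with 24). Txndc11 (a thioredoxin-like partner of degradation; ENSMUSG00000022498, chromosome 16, 11074911 to 11134650, minus strand) was at 46.8, 50.2, 53.3 and 53.5 CPM and 79.2, 65.5 and 63.2 CPM (0.44 ± 0.08, adjusted p 0.00133, and 0.00890 with 24). Every asbestos library lay above every naive one for both genes, as for 9.24% of all genes. Edem2 (ENSMUSG00000038312, chromosome 2, 155701677 to 155729475, minus strand), which trims mannose from misfolded glycoproteins and so marks them for degradation, held 96.9, 89.3, 89.0 and 85.0 CPM in naive and 120.3, 113 and 113 CPM in asbestos libraries (0.36 ± 0.06, adjusted p 0.00136). Sec61a1 (ENSMUSG00000030082, chromosome 6, 88503579 to 88518905, minus strand), the pore subunit of the Sec61 channel, held 255, 269.9, 252 and 247 and 323, 294 and 309 CPM (0.27 ± 0.06, adjusted p 0.00826). These groups did not overlap either. Hspa5 values of 1041, 1319, 1179 and 1179 CPM in naive and 1589, 1398 and 1316 CPM in asbestos libraries overlapped (0.28 ± 0.11, adjusted p 0.166). With 24 libraries edgeR called 2, Dnajc3 and Txndc11 (1.43% of all genes higher and 0.475% lower, 1.90% in all), and the sign of Txndc5 turned (-0.066). The count was 5 when young asbestos Siglec F-high replicate 1 was left out and 7 in a fit of these 2 groups only, while Hyou1, Dnajc3, Sdf2l1, Txndc11 and Edem2 were called without any one of the 7 libraries. Over all genes the fits with counts of 5 and 7 called 211 and 418, against 690 with 22 libraries.

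In old mice 5 genes rose after asbestos and 0 fell (3.16% of all genes higher, 0.969% lower, 4.12% called). They were Edem2 (0.33 ± 0.06), Txndc11 (0.36 ± 0.08), Sec61a1 (0.27 ± 0.06), Manf (0.43 ± 0.10) and Hyou1 (0.31 ± 0.09), and all 5 were among the 15 that rose in young mice, with whom the old comparison shares no library. Over all genes 217 were called higher at both ages (1.59%). The median of the 40 was 0.18, with 37 values above 0. Edem2 stood at 95.3, 87.9, 91.3 and 101 CPM in old naive and 117, 113 and 123 CPM in old asbestos libraries (0.33 ± 0.06, adjusted p 0.00362). Txndc11 was at 52.1, 54.8, 49.8 and 52.2 and 68.1, 69.3 and 64.0 CPM (0.36 ± 0.08, adjusted p 0.00921, and 0.0495 with 24), Sec61a1 at 251, 237, 225 and 249.7 and 298, 289.8 and 283 CPM (0.27 ± 0.06, adjusted p 0.00969). For Manf the old naive values given above and the old asbestos ones did not overlap (0.43 ± 0.10, adjusted p 0.0163), which held for all 5 genes and for 9.58% of all genes. Hspa5 means were 896 ± 128 (n = 4) and 1135 ± 105 CPM (n = 3), and the gene was not called (0.34 ± 0.11, adjusted p 0.0937). The count of 5 was 3 when old naive replicate 3 was left out, 3 when old asbestos Siglec F-high replicate 1 was left out and 3 when old asbestos Siglec F-high replicate 4 was left out. With 24 libraries it was 1 (Txndc11), with 0.713% of all genes higher and 0.0668% lower, 0.780% in all. Edem2 and Txndc11 were called without any one of the 7 libraries. Of 10 B and plasma cell markers 6 were called lower after asbestos in young and 4 in old mice (4 and 0 with 24) and none higher, with the summed levels given above. Of 10 resident macrophage markers 3 were called higher and 1 lower in young mice (0 and 0 with 24). In old mice 1 was called higher and 0 lower (1 and 0 with 24). Of 8 markers of dividing cells 3 and 2 were called higher (2 and 0 with 24). Of 11 markers of monocyte-derived macrophages 5 and 3 were called higher (4 and 0 with 24) and 1 (Ly6c2) lower in young mice, and their sum was 445 to 601 CPM in naive and 832 to 1171 CPM in asbestos libraries of young mice and 675 to 1169 and 1462 to 1626 CPM in those of old mice. Their part in the asbestos differences was not tested.

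The sorts were compared within asbestos lungs. In young mice 14 of the 40 genes were higher in Siglec F-low than in Siglec F-high cells and 0 lower (7.42% of all genes higher, 4.60% lower, 12.0% called). They were the chaperones and partners Creld2 (0.48 ± 0.11), Sdf2l1 (0.50 ± 0.12), Dnajb11 (0.31 ± 0.07), Hspa5 (0.46 ± 0.11), Manf (0.38 ± 0.10) and Hsp90b1 (0.32 ± 0.09); the isomerases Pdia4 (0.30 ± 0.08), P4hb (0.30 ± 0.08) and Pdia6 (0.29 ± 0.09); the degradation genes Edem1 (0.27 ± 0.06), Edem2 (0.26 ± 0.06) and Derl2 (0.36 ± 0.10); Calr; and Spcs2. The median of the 40 was 0.22, and 37 of 40 values were above 0. Hspa5 held 1589, 1398 and 1316 CPM in Siglec F-high and 2055, 2180.2, 1923 and 1745 CPM in Siglec F-low libraries, without overlap (0.46 ± 0.11, adjusted p 0.00868). Creld2 was at 84.0, 73.5 and 72.5 and 115, 121, 104 and 87.0 CPM (0.48 ± 0.11, adjusted p 0.00438). Calr (ENSMUSG00000003814, chromosome 8, 84841850 to 84846934, minus strand) was at 1394, 1248 and 1245 and 1733, 1701, 1601 and 1478 CPM (0.33 ± 0.08, adjusted p 0.00466). In all 3 genes each Siglec F-low library was above each Siglec F-high one, as in 12.9% of all genes. Spcs2 (a subunit of the peptidase that cuts signal peptides; ENSMUSG00000035227, chromosome 7, 99837569 to 99863462, minus strand) held 172, 157 and 147 CPM in Siglec F-high and 229, 222, 199 and 183 CPM in Siglec F-low libraries (0.39 ± 0.09, adjusted p 0.00322). Edem1 (a mannosidase-like degradation factor; ENSMUSG00000030104, chromosome 6, 108828641 to 108859356, plus strand) held 290.2, 267 and 293 and 343, 356, 339 and 331 CPM (0.27 ± 0.06, adjusted p 0.00529), and Pdia4 had the values already given (0.30 ± 0.08, adjusted p 0.00907). None of these overlapped between the sorts. With 24 libraries edgeR called 0 (3.41% of all genes higher and 1.58% lower, 4.99% in all), and Hsp90b1 and Pdia6 turned negative (-0.44 and -0.16). Limma voom with sample weights called 16 of the 40 and 2309 of all 13467 genes, where edgeR called 672 of all genes. In edgeR 13 of the 40 had an unadjusted p under 0.05 there, as did 20.7% of all genes. The count was 7 when young asbestos Siglec F-high replicate 2 was left out and 7 when young asbestos Siglec F-high replicate 4 was left out, and Sdf2l1, Creld2, Pdia4, Calr and Spcs2 were called without any one of the 7 libraries. Over all genes the fits without replicate 2 and without replicate 4 called 862 and 986, against 1638 with 22 libraries.

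In old mice 19 genes were higher in the Siglec F-low sort and 0 lower (6.30% of all genes higher, 5.28% lower, 11.6% called). Chaperones and partners gave 8 of the 19, Sdf2l1 (0.60 ± 0.12), Hspa5 (0.51 ± 0.11), Hyou1 (0.49 ± 0.09), Creld2 (0.47 ± 0.11), Manf (0.38 ± 0.10), Dnajc3 (0.35 ± 0.08), Hsp90b1 (0.33 ± 0.09) and Dnajb11 (0.25 ± 0.07). The others were the isomerases Pdia6 (0.35 ± 0.09), Pdia4 (0.37 ± 0.08) and P4hb (0.30 ± 0.08); the lectin chaperones Calr (0.27 ± 0.08) and Canx (0.21 ± 0.06); Edem2 (0.38 ± 0.06) and Edem1 (0.23 ± 0.06); and the translocation genes Ssr2 (0.42 ± 0.11), Spcs2 (0.33 ± 0.09), Ssr1 (0.21 ± 0.06) and Sec61a1 (0.19 ± 0.06). The median of the 40 was 0.23, beside -0.01 over all genes. Hspa5 held 1045, 1110.3 and 1249.9 CPM in Siglec F-high and 1577, 1379, 1682 and 1828 CPM in Siglec F-low libraries (0.51 ± 0.11, adjusted p 0.00408, and 0.0156 with 24). Hyou1 was at 261, 234 and 277 and 348, 340.1, 354 and 399 CPM (0.49 ± 0.09, adjusted p 0.000596), Edem2 at 117, 113 and 123 and 159, 143, 151 and 161 CPM (0.38 ± 0.06, adjusted p 0.000253, and 0.0156 with 24). The sorts did not overlap in any of the 3, nor in 11.5% of all genes in this direction. Pdia4 (0.37 ± 0.08, adjusted p 0.00205) and Herpud1 (0.23 ± 0.09, adjusted p 0.0990) are compared from the values already given, and the second was not called. Calr stood at 1179.6, 1195 and 1269 and 1469, 1381, 1440.1 and 1559 CPM (0.27 ± 0.08, adjusted p 0.0206), Spcs2 at 152, 148 and 150.1 and 191, 178, 182 and 203 CPM (0.33 ± 0.09, adjusted p 0.0121), without overlap. Of the genes higher in Siglec F-low cells, 13 were called at both ages, which is 13 of the 14 in young and 13 of the 19 in old mice, and over all genes 4.23% were. The comparisons at the 2 ages share no library. With 24 libraries edgeR called 4 (Edem2, Dnajc3, Hspa5 and P4hb), with 2.64% of all genes higher and 1.66% lower, 4.30% in all. The replicate numbers paired these old sorts by the rule given with the processing. A fit of the asbestos groups alone with the number as a block, in which a Siglec F-low library without a partner has no weight, called 28 genes, 27 higher and 1 lower (Xbp1). The same groups without the block gave 19, and the 3 pairs of each age alone, without the block, 17. Over all genes the block fit called 2537 of 13185, the same groups without it 1676, and the pairs alone 1379 of 13089. In the fit of all groups the count was 8 when old asbestos Siglec F-high replicate 1 was left out, 11 when old asbestos Siglec F-high replicate 2 was left out and 11 when old asbestos Siglec F-low replicate 4 was left out. Over all genes the fits with counts of 8, 11 and 11 called 1059, 1024 and 1062, against 1578 with 22 libraries. Hspa5, Hyou1, Dnajc3, Sdf2l1, Creld2, Pdia4 and Edem2 were called without any one of the 7 libraries. The sorts also differed in 9 of 11 monocyte-derived macrophage markers in young and 9 in old mice, all higher in Siglec F-low (7 and 9 with 24), with sums of 832 to 1171 and 3759 to 6208 CPM in young and 1462 to 1626 and 4851 to 5296 CPM in old Siglec F-high and Siglec F-low libraries. Of 10 resident macrophage markers 4 and 5 were lower (4 and 3 with 24), while Chil3 was higher (young 0.90 ± 0.13, adjusted p 3.59e-05, and old 0.72 ± 0.13, adjusted p 0.000415). The summed level of these 10 was higher in the Siglec F-low sort. It was 26463 to 30484 and 39049 to 51720 CPM in young and 39497 to 44531 and 56215 to 71033 CPM in old Siglec F-high and Siglec F-low libraries. A sum of CPM weighs the most abundant genes most, and the median log2 fold change of the 10 was -0.20 in young and -0.33 in old mice. B and plasma cell markers were called in neither comparison. The part of these markers in the sort differences was not tested.

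Markers of other lung cells stood low beside these sums. Over the 22 libraries the summed level was 23.6 to 214 CPM for 6 alveolar epithelial, 35.8 to 70.9 CPM for 5 neutrophil, 3.48 to 15.04 CPM for 5 T and NK cell and 5.85 to 17.9 CPM for 4 dendritic cell markers. In the order of the 7 comparisons above, 0, 1, 1, 0, 1, 1 and 2 epithelial, 2, 3, 0, 1, 0, 3 and 1 neutrophil and 1, 0, 0, 1, 0, 0 and 0 dendritic cell markers were called in either direction, and no T or NK cell marker was. Neutrophil markers were called higher in old asbestos Siglec F-high cells (3 of 5, and 0 with 24 libraries), in which the chaperones fell, with sums of 35.8 to 48.2 CPM in young and 48.1 to 55.2 CPM in old libraries, and their part was not tested.

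**Figure D3:**
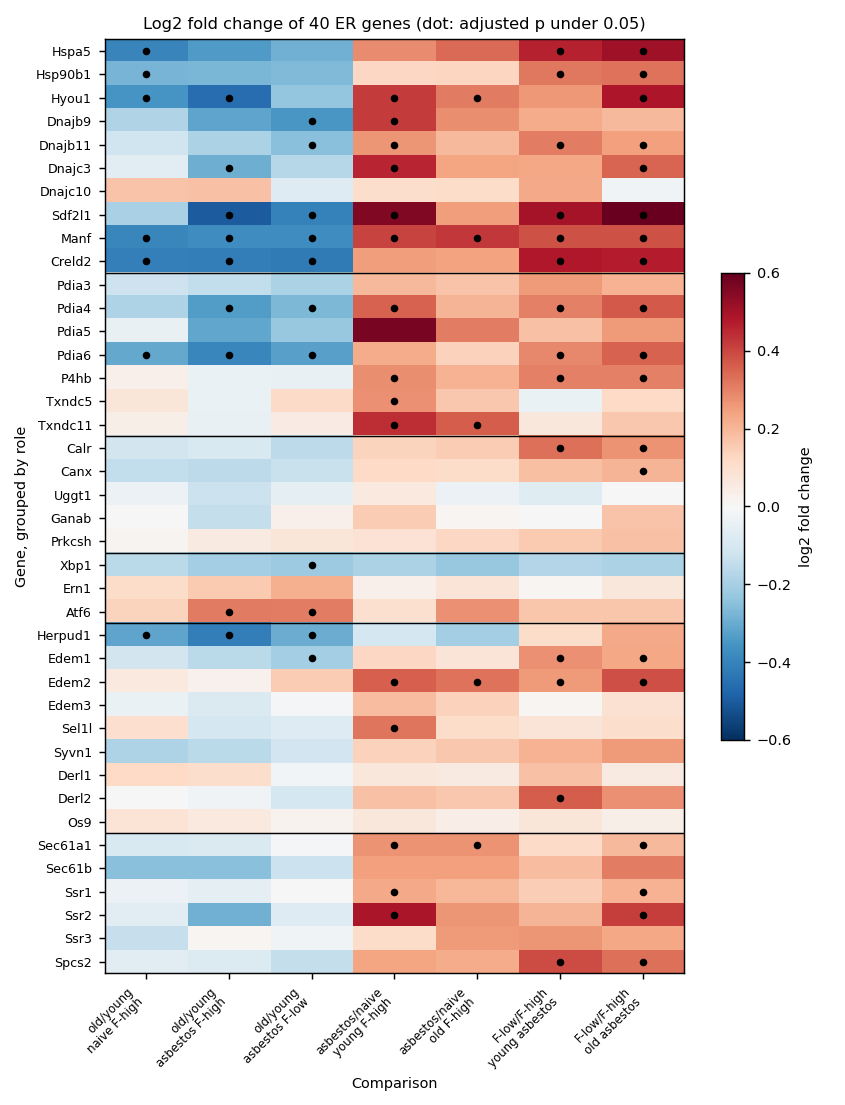
Log2 fold change of each of the 40 ER genes (rows, in 6 roles divided by lines) in 7 comparisons (columns), with red for higher and blue for lower in the first group named, in 22 libraries; dots mark genes called by edgeR at an adjusted p under 0.05. Called genes of the 3 age comparisons are lower in old cells except Atf6, and those of the other 4 comparisons are all higher. Columns are not independent: those for asbestos and for sort share the asbestos Siglec F-high groups. Each age column also shares its groups with columns for asbestos, for sort or for both.

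Whether the asbestos and sort differences themselves differed with age was tested by interaction terms. For age and asbestos edgeR called 0 of the 40 genes, and 0 had an unadjusted p under 0.05, where 5.16% of all genes had. For age and sort edgeR again called 0, with 1 gene (Dnajc10) at an unadjusted p under 0.05 against 6.38% of all genes. DESeq2 and limma voom called 0 in both as well. Of all genes 0.0147% were called in each interaction. The interaction of Hspa5 was 0.06 ± 0.16 for asbestos and 0.05 ± 0.16 for sort, and the values of the 40 genes ran from -0.31 to 0.18 and from -0.25 to 0.23. The 15 genes called after asbestos in young and 5 in old mice are therefore not shown to differ between the ages.

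The 3 sensor genes differed among themselves. Xbp1 (ENSMUSG00000020484, chromosome 11, 5520659 to 5525893, plus strand) stood at 466, 489.8, 532 and 524 CPM in young naive and 448, 472, 439 and 436 CPM in old naive libraries. In the asbestos Siglec F-high groups it was at 431, 470.4 and 421 CPM in young and 391, 395 and 363 CPM in old, and in the Siglec F-low groups at 403, 409, 393 and 357 and 341, 341, 348 and 312 CPM. Its mean was highest in young naive cells, although those libraries overlapped old naive and young asbestos Siglec F-high ones, and all 4 old Siglec F-low libraries lay below every other library. In edgeR it was called in old against young Siglec F-low cells alone (-0.22 ± 0.06, adjusted p 0.0314). In the 4 comparisons of asbestos and of sort its log2 fold changes were -0.19 ± 0.07, -0.23 ± 0.07, -0.17 ± 0.07 and -0.19 ± 0.07 (adjusted p 0.107, 0.0554, 0.0939 and 0.0663), all below 0 and none called. The other tools differed in their calls: DESeq2 called Xbp1 lower in 6 of the 7 comparisons (all but the sorts of old mice), edgeR with the replicate block in 5, limma voom with sample weights in 5 and edgeR with 24 libraries in 0. In the sorts of old mice the value with the block, fitted in the asbestos groups alone, was -0.20 (adjusted p 0.0171). Ern1, which encodes the kinase and nuclease IRE1, was called in no comparison, with means from 51.1 CPM (young naive) to 61.0 CPM (old Siglec F-low) and log2 fold changes of 0.01 to 0.21. Atf6 had means of 66.8 ± 2.94 CPM in young naive, 73.3 ± 7.14 in old naive, 71.5 ± 0.674 and 88.6 ± 4.98 CPM in asbestos Siglec F-high, and 80.2 ± 4.88 and 99.3 ± 10.5 CPM in Siglec F-low cells of young and old mice, n = 4 in all but the Siglec F-high asbestos groups with 3. Its naive age difference was not called (0.13 ± 0.08, adjusted p 0.341).

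Of the 40 genes, 13 were called in none of the 9 tests (32.5%, beside 72.1% of all genes tested). They were Pdia3 and Pdia5 (isomerases), Dnajc10 (a reductase with a J domain), Uggt1, Ganab and Prkcsh (the folding sensor and the glucosidase II subunits of the glycoprotein cycle), Edem3, Derl1, Os9 and Syvn1 (degradation), Sec61b and Ssr3 (translocation), and Ern1. Os9, a lectin of the degradation complex, had log2 fold changes of 0.02 to 0.08 over the 7 comparisons, with SEs of 0.05 to 0.06. Pdia5 had the lowest level of the set and wider errors, with 0.57 ± 0.19 after asbestos in young mice (adjusted p 0.0946). In glycoprotein folding Calr and Canx were called and the 3 genes of the glucose trimming cycle were not, in any comparison.

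The genes were also divided by the promoter letters shown above. Of the 8 genes with the first element, 4, 3 and 2 were called lower in old cells in the naive, asbestos Siglec F-high and Siglec F-low comparisons, and 0, 2 and 5 of the 22 whose window held none of the 3 elements. Their medians were -0.23, -0.28 and -0.22, and -0.04, -0.10 and -0.08 in the 22. Over all genes 2.91, 2.47 and 3.41% were called lower in these comparisons. After asbestos, 1 and 0 of the 8 rose in young and old mice (medians 0.18 and 0.16), and 7 and 1 of the 22 (0.19 and 0.17), while 3.48 and 3.16% of all genes did. Between the sorts 5 and 7 of the 8 were higher in Siglec F-low cells (medians 0.30 and 0.34), and 7 and 7 of the 22 (0.20 and 0.21), beside 7.42 and 6.30% of all genes. Herpud1, with the second form, was called lower in all 3 age comparisons and in no other, and Dnajb11, also with it, lower in the Siglec F-low age comparison and higher after asbestos in young mice and in both sort comparisons. Txndc11, with the XBP1 letters, was called higher after asbestos at both ages, and Txndc5, also with them, in young mice alone. These divisions were made after the values were seen and carry no test, and Manf and Hyou1 are among the 6 genes without a window.

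A second list of 40 ER genes outside the set, among them oligosaccharyltransferase, signal peptidase and KDEL receptor genes, was read from the same fits. It gave 1 higher and 1 lower in old naive cells, where 5.11% of all genes were higher and 2.91% lower. In old asbestos Siglec F-high cells it gave 2 higher and 1 lower (all genes 4.84% and 2.47%). In old Siglec F-low cells it gave 1 higher and 0 lower (all genes 3.80% and 3.41%). After asbestos it gave 5 higher and 0 lower in young (all genes 3.48% and 1.58%) and 6 higher and 0 lower in old mice (3.16% and 0.969%). In the Siglec F-low sort it gave 6 higher and 0 lower in young (7.42% and 4.60%) and 9 higher and 0 lower in old mice (6.30% and 5.28%). With all 24 libraries the numbers higher in the 7 comparisons, in this order, were 1, 1, 0, 1, 0, 2 and 3, and those lower 0, 2, 0, 0, 0, 0 and 0. Fkbp11 (a prolyl isomerase of the secretory pathway) held 0.763, 0.675, 0.361 and 0.575 CPM in young naive and 2.11, 2.80, 1.99 and 2.45 CPM in old naive libraries, a rise of 1.98 ± 0.36, adjusted p 0.000896 (0.00583 with 24 libraries). It was at 4.75, 2.58 and 2.31 and 6.29, 5.36 and 8.76 CPM in young and old asbestos Siglec F-high and at 15.2, 8.83, 8.57 and 9.70 and 15.8, 9.30, 11.5 and 19.6 CPM in Siglec F-low libraries. After asbestos it rose in young (2.44 ± 0.36, adjusted p 0.000264, and 0.000590 with 24) and old mice (1.53 ± 0.29, adjusted p 0.00288, and 0.0700 with 24), and with age in asbestos Siglec F-high cells (1.07 ± 0.30, adjusted p 0.0327, and 0.182 with 24), where the chaperones fell. Fkbp11 is also abundant in plasma cells, whose summed markers are given above, and their part was not tested. Wfs1 (wolframin, an ER membrane protein that acts on ATF6) was higher in Siglec F-low than in Siglec F-high cells in young (1.16 ± 0.14, adjusted p 3.44e-06) and old mice (1.75 ± 0.14, adjusted p 1.43e-08), at 9.16, 8.60 and 7.44 against 17.9, 17.8, 18.5 and 21.2 CPM and 9.57, 7.92 and 7.68 against 25.1, 23.6, 30.2 and 34.4 CPM. In the Siglec F-low sort it was also higher in old than in young cells (0.59 ± 0.12, adjusted p 0.00279, and 0.112 with 24). The lumenal factor Erp29, the glucosidase gene Mogs, the ATF6 protease gene Mbtps2, the translocon gene Ssr4, the cargo receptor gene Lman1 and the oligosaccharyltransferase genes Stt3b, Ddost and Rpn1 were also among the called genes of smallest p. Their values were Erp29 (-0.22 ± 0.07) in old naive cells, Mogs (-0.35 ± 0.07) and Mbtps2 (0.45 ± 0.10) in old asbestos Siglec F-high cells, Stt3b (0.22 ± 0.05) after asbestos in young and Ssr4 (0.50 ± 0.11) and Ddost (0.23 ± 0.06) in old mice, and Rpn1 (0.44 ± 0.08) and Lman1 (0.32 ± 0.07) in Siglec F-low cells of old mice. Of these 8 genes Mogs, Mbtps2 and Rpn1 were also called with 24 libraries in the comparison named.

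**Figure D4:**
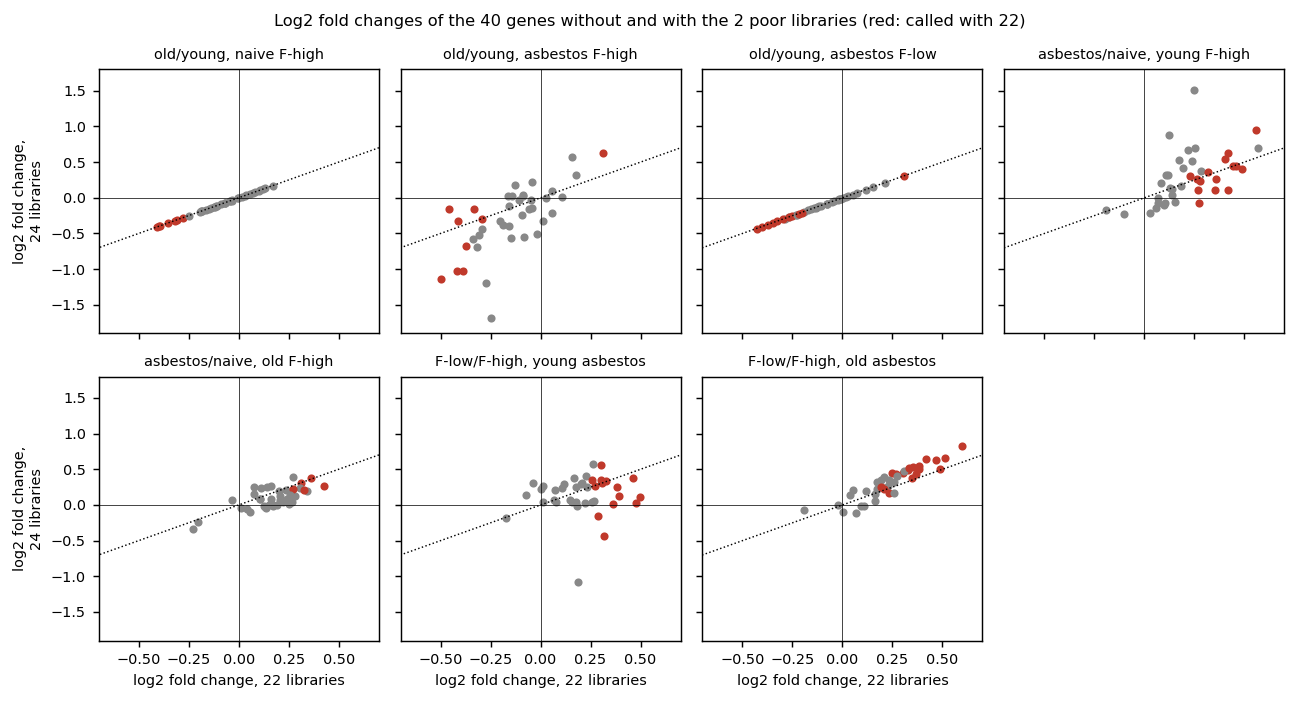
Log2 fold change of each of the 40 genes with 22 libraries (x axis) against all 24 (y axis) in 7 comparisons, with red points for genes called with 22 libraries and a dotted line where both are equal (the axes differ in scale). In the comparisons that contain no poor library (old against young in naive and in Siglec F-low cells) the points lie on the line, and the spread of the others reaches -1.69 on the y axis.

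The weight of the poor libraries on these counts is shown by the plot of fold changes with and without them. In the naive and the Siglec F-low age comparisons, whose groups hold neither, the fold changes stayed nearly equal and the median SE over all genes went from 0.13 with 22 to 0.24 with 24 libraries in the first and from 0.13 to 0.24 in the second. In old against young asbestos Siglec F-high cells the median of the 40 went from -0.14 to -0.23, and Sec61b from -0.25 to -1.69.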

How the data were processed

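The authors deposited 1 table of read counts per Ensembl mouse gene, whole numbers without scaling. The submitters' processing notes name Trimmomatic 0.36, STAR 2.6.0, HTSeq 0.11.2 and the build mm10 without parameters, and the annotation and strand setting are not given in the sources used here, so reads of overlapping genes cannot be told apart. Per the labels, libraries came from poly(A) RNA (NEBNext Ultra). All 24 columns were matched to samples by title. Positions, exon lengths and symbols are from GENCODE M21 (GRCm38), and promoter windows from RefSeq (GRCm38.p6).

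Genes were filtered with filterByExpr (minimum count 10, minimum total 15), scaled with TMM factors and fitted with 1 term per group (edgeR 4.0.16, quasi-likelihood test, R 4.3.3), after 2 libraries with a correlation under 0.95 to the rest of their group were left out. The 7 comparisons and 2 interactions were adjusted over all 13629 genes. An SE is the absolute log2 fold change over the square root of F. The code was tested on simulated data. Alternatives were all 24 libraries, DESeq2 1.42.0, limma 3.58.1 voom with sample weights, RLE factors, no filter, the groups compared alone, a replicate block (for the sorts, in the asbestos groups alone, which were also fitted without it) and each library left out. The 40 genes, the lists and the choice of libraries were made with earlier results of these data known. Named with values in every library were Hspa5 and, in each comparison, the called gene of smallest p in each role; other values and marker genes were added after they were seen, and of the other pathway genes the 3 called genes of smallest p were named.

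Replicate numbers were taken as pairing 2 groups if the deviations of same-number libraries from their group means correlated above 0.1 for every number. The old asbestos sorts passed (0.150 to 0.205, 3 numbers) and the young ones did not (0.0854 to 0.319). No other pair of groups passed. The marker lists were resident and monocyte-derived macrophages, B and plasma cells, alveolar epithelium, neutrophils, T and NK cells, dendritic cells and dividing cells.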

Additional observations from a re-analysis of the deposited data

Results flagged for a closer look

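Over 16 genes of the set given library by library and 5 others (Fkbp11, Wfs1, Asns, Atf4 and Siglecf), 84 groups of 4 libraries were examined for a library far from the others. There were 3, where chance gives about 1 in 20 groups. In old asbestos Siglec F-low cells Creld2 stood at 71.7 CPM in replicate 2, while the others ran from 80.8 to 82.7 CPM, and the gap to the nearest was 0.830 of the range. In both other cases replicate 4 of the old naive group was highest, at 8.99 CPM of Asns against 4.18 to 4.81 CPM in the others, and at 8.99 CPM of Wfs1 against 6.70 to 6.98 CPM. Those gaps were 0.869 and 0.878 of the range. Groups of 3 libraries were not examined.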

How the results depend on the processing

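With all 24 libraries edgeR called 0 of the 40 genes in the naive age comparison, 0 in the Siglec F-low age comparison, 2 and 1 after asbestos in young and old mice, and 0 and 4 between the sorts of young and old mice, against 7, 11, 15, 5, 14 and 19 with 22. Of 80 calls over the 7 comparisons 68 were lost, and 4 were gained. Of the 280 fold changes 38 changed sign, 3 of them called with 22 libraries: Txndc5 after asbestos in young mice (-0.066), and Hsp90b1 (-0.44) and Pdia6 (-0.16) between the young sorts. Limma voom with sample weights on 24 libraries called 11 in the naive and 7 in the Siglec F-low age comparison (1870 and 1285 of all 13467 genes). With the groups compared alone the counts were 4 and 7 there and 7 after asbestos in young mice. Over all genes those fits called 685, 798 and 418, against 1094, 983 and 690 with all groups in the fit. In old against young asbestos Siglec F-high cells the groups alone gave 1 higher and 11 lower of the 40, against 9 called with all groups. Over all genes 1274 were called there, against 997. DESeq2 called 8 after asbestos in old mice, and 811 of 13406 genes, against 562 of 13629 by edgeR. For the sorts the replicate block was fitted in the asbestos groups alone, where Siglec F-low replicate 3 has no partner and so no weight, and called 26 in young and 28 in old mice. Without the block the same groups gave 15 and 19, and the paired libraries alone 14 and 17 (both chosen after the data were seen). Over all genes the block fit called 3371 in young and 2537 in old mice, of 13185. The same groups without it gave 1868 and 1676, and the paired libraries alone 1870 and 1379 of 13089. No call was lost with the block, and RLE factors lost 1. Leaving out 1 library gave 3 to 8, 2 to 6 and 1 to 12 calls in the naive, asbestos Siglec F-high and Siglec F-low age comparisons, 5 to 14 and 3 to 6 after asbestos in young and old mice, 7 to 19 and 8 to 21 between the young and old sorts, and 0 in both interactions. Over all genes it gave 742 to 1160, 496 to 811 and 661 to 871 calls in the age comparisons. After asbestos it gave 211 to 834 and 223 to 532, and between the sorts 862 to 1666 and 1024 to 1637. The cause of these changes in the counts was not tested.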

Other observations

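The third arm of the response runs through PERK and ATF4 to Ddit3, Trib3, Asns and Ppp1r15a, and 11 genes of this arm were tested. It gave 1 higher and 0 lower in old naive cells, 1 higher and 0 lower in old asbestos Siglec F-high and 0 higher and 0 lower in old Siglec F-low cells, 0 higher and 1 lower and 0 higher and 0 lower after asbestos in young and old mice, and 2 higher and 0 lower and 2 higher and 0 lower in the Siglec F-low sort. Over all genes 5.11, 4.84, 3.80, 3.48, 3.16, 7.42 and 6.30% were higher in these comparisons, in the same order. Lower were 2.91, 2.47, 3.41, 1.58, 0.969, 4.60 and 5.28%. With all 24 libraries the numbers of the 11 genes called higher in the 7 comparisons, in this order, were 0, 0, 0, 0, 0, 1 and 1, and those lower 0, 0, 0, 1, 0, 0 and 0. Asns (asparagine synthetase) rose in old naive cells from 1.74, 3.78, 2.63 and 2.59 to 4.78, 4.18, 4.81 and 8.99 CPM (1.09 ± 0.25, adjusted p 0.00685, and 0.126 with 24). The groups did not overlap, as in this direction for 7.22% of all genes, and Hspa5 and Hyou1 fell in the same comparison. Trib3, a pseudokinase induced by ATF4, was higher in Siglec F-low than in Siglec F-high cells in young (0.87 ± 0.21, adjusted p 0.00689, and 0.0826 with 24) and old mice (0.66 ± 0.20, adjusted p 0.0314, and 0.421 with 24). Ppp1r15a (GADD34, which directs the phosphatase of eIF2alpha) fell after asbestos in young mice (-0.48 ± 0.11, adjusted p 0.0138, and 0.0247 with 24) and was higher in the Siglec F-low sort of old mice (0.47 ± 0.11, adjusted p 0.00758, and 0.0343 with 24). Atf4 was called in no comparison, with 193, 216, 197 and 196 CPM in young and 251, 225, 170.3 and 206 CPM in old naive libraries.

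Within a group the median coefficient of variation of the 40 genes between libraries was 4.76% (old asbestos Siglec F-high, n = 3) to 7.54% (old naive, n = 4). It was not computed for all genes. The asbestos Siglec F-high groups had each lost a library because it differed from the rest, which narrows their spread. The widest coefficients were 25.9% for Pdia5 in old naive and 25.5% for Sec61b in young naive cells.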
